A study of Rattus norvegicus with 6 samples.

Results

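The 10 genes described here encode the main apolipoproteins that the liver releases into plasma: Apoa1, Apoa2, Apoa4, Apoa5, Apob, Apoc1, Apoc2, Apoc3, Apoe and Apom. Each was taken by its symbol from a table of 32930 gene rows, each symbol had a single row, and all 10 were among the 18455 genes that passed the expression filter and were tested. RNA was sequenced from the livers of 3 animals that ate a high-fat diet (the HFD group) and of 3 that ate the same diet and received HTG, a granule made from Chinese herbs (the HTG group). The labels state 12 weeks of intervention and give the HFD group 0.5% CMC-Na, the vehicle, in place of HTG. The treatment label of the HTG group reads HCG where the title reads HTG. The sources differ on the animal, since the labels name rats, the paper's sequencing paragraph names C57BL/6 J mice, and every gene row carries a mouse Ensembl identifier, and the genes are treated here as those of the mouse. For its rats the paper describes a diet with added cholesterol, egg yolk powder, pig fat and sodium cholate, and HTG by gavage after a first period on the diet alone. Whether the sequenced livers came from those rats is not settled. Age and the genotype at any apolipoprotein gene are not stated for these samples.

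Apolipoproteins hold lipids in soluble particles. Apolipoprotein B is the large, non-exchangeable scaffold of very-low-density and low-density lipoproteins, with 1 molecule per particle, while apolipoproteins A-I and A-II build high-density lipoprotein (HDL). The small C apolipoproteins and apolipoprotein E move between particles, where they set how fast triglyceride is removed and how remnants are taken up by the liver. Most of these genes are expressed mainly by hepatocytes, and Apoa1, Apoa4 and Apob also by the intestine.

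Each library had between 50648778 and 90563477 estimated counts. Among low counts the value 4 occurred 6450 times, the values 1, 2 and 3 occurred 5104, 4229 and 2549 times and the value 8 occurred 3333 times. With a fragment taken as about 4 counts, which the values 1 and 2 do not follow, an empty gene was allowed up to 12 counts. This was 0.123 to 0.256 CPM, a count scaled to the library total after TMM adjustment. The limit rests on that reading and covers counting error only, and every apolipoprotein count lay far above it. The 13 mitochondrial mRNAs took 4.82% to 6.31% of the counts in the HFD libraries and 9.12% to 14.9% in the HTG libraries. The design text names 6 animals, but no label ties a library to an animal, cage or batch, so p-values measure the spread between these libraries.

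Together the 10 mRNAs took 1.82%, 1.8% and 1.6% of the counts in libraries 1, 2 and 3 of the HFD group. In libraries 1, 2 and 3 of the HTG group they took 2.75%, 3.33% and 2.62%. The HTG libraries all lay above the HFD libraries, with means of 1.74% ± 0.12 (SD, n = 3) and 2.90% ± 0.38 (SD, n = 3). This difference of 1.16 percentage points was 1.48 with all 37 mitochondrial rows left out of the totals. The 10 mRNAs did not share it evenly. Apoa1 went from 7159 ± 579 to 16858 ± 1806 CPM (SD, n = 3 per group), by far the largest rise of the 10. Apoa4, Apob and Apom were lower in every HTG library. Levels of different genes were compared as FPKM, a count scaled by transcript length and library size, as deposited. In the HFD group Apoa1 had the highest level of the 10, 5607 ± 662 FPKM (SD, n = 3), and was the 8th highest of all gene rows. Apoa2 (3495 ± 733), Apoc1 (1747 ± 301) and Apoc3 (725 ± 148) came next, and each of these 4 lay above its successor in all 3 HFD libraries, except that Apoa5 was above Apoc3 in 1 of them. The ranges of Apoc3, Apoa5 (594 ± 349) and Apoa4 (517 ± 73.6) overlapped from neighbour to neighbour, although Apoc3 was above Apoa4 within each of the 3 libraries. The range of Apom (161 ± 44.4) overlapped those of Apob (229 ± 34.5) and Apoc2 (125 ± 52.8), which were apart from each other, and Apob was above Apom within each of the 3 libraries. Apoe had the lowest level, 27.8 ± 13.0 FPKM (SD, n = 3), below Apoc2 in all 3 libraries.

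**Figure D1:**
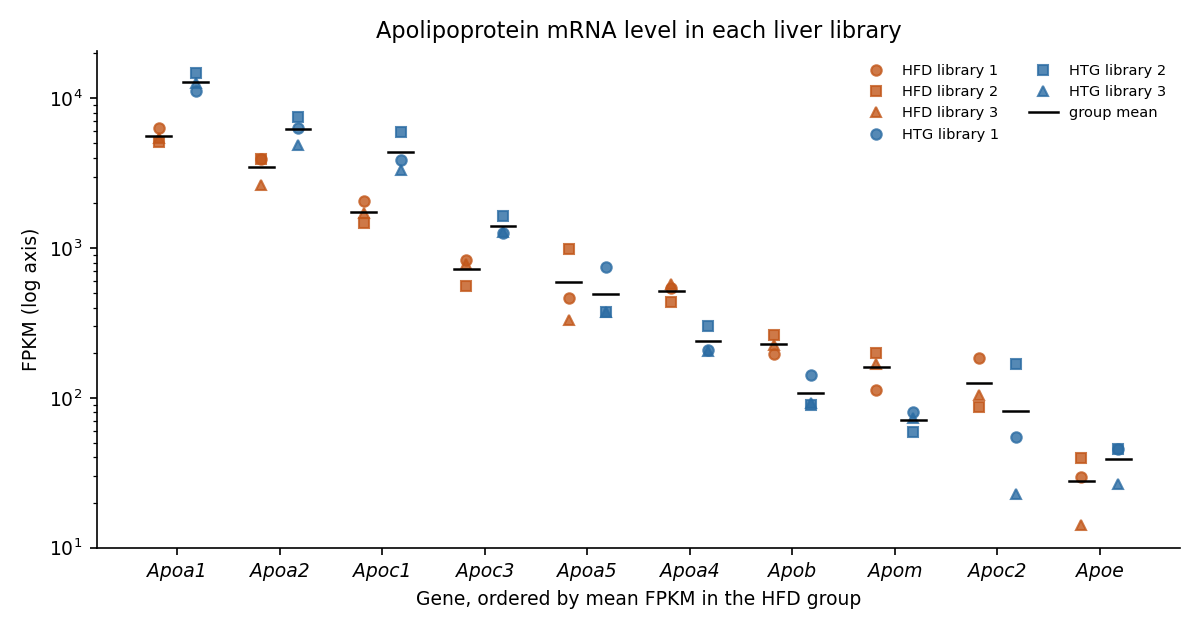
Level of the 10 apolipoprotein mRNAs in FPKM on a log axis, with 1 point per library, HFD in orange, HTG in blue and the group mean as a line. The points of the groups stand apart for Apoa1, Apoa2, Apoc1 and Apoc3, with HTG above, and for Apoa4, Apob and Apom, with HTG below.

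In the HTG group the order was Apoa1 (12799 ± 1756 FPKM), Apoa2 (6210 ± 1311), Apoc1 (4385 ± 1401), Apoc3 (1392 ± 205), Apoa5 (496 ± 214), Apoa4 (239 ± 55.8), Apob (108 ± 29.7), Apoc2 (81.6 ± 76.0), Apom (71.0 ± 10.8) and Apoe (39.2 ± 11.0). The ranges of Apoa2 and Apoc1 overlapped, although Apoa2 was above Apoc1 within each of the 3 libraries. The range of Apoc2 overlapped those of Apob and Apom, which were apart from each other. It also spanned the range of Apoe, which was above Apoc2 in HTG library 3 (26.5 against 22.9 FPKM). Apoc3, Apoa5 and Apoa4, whose ranges overlapped from neighbour to neighbour in the HFD group, were apart here. Apoa1 supplied 42.4% ± 3.15 of the FPKM of the 10 genes in the HFD group and 49.8% ± 4.71 in the HTG group, while Apoa4 supplied 3.94% ± 0.776 and 0.920% ± 0.0619 (SD, n = 3 per group).

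The comparison of HTG with HFD asked which of these mRNAs differ in liver between animals on this diet with and without HTG. Apoa1, Apoa2, Apoc1 and Apoc3 were higher in the HTG group and Apoa4, Apob and Apom were lower, each at an unadjusted p under 0.05 and each with groups that did not overlap. Apoa5, Apoc2 and Apoe did not pass. Thus 7 of the 10 passed that threshold, against 24.7% of all genes tested. The 4 higher genes compare with 12.3% of all genes tested that were higher, and the 3 lower genes with 12.4% that were lower. The groups did not overlap in 7 of the 10, against 32.1% of all genes tested. After adjustment over all genes by the Benjamini-Hochberg method, 6 of the 10 had an adjusted p under 0.1 in edgeR's quasi-likelihood test, against 10.8% of all genes tested. They were 3 higher (5.41% of all genes tested) and 3 lower (5.43%). These calls turned with single libraries, and without HTG library 2 the smallest edgeR adjusted p of the 10 was 0.188. With all 6 libraries none, 0 of 10, had an adjusted p under 0.05, which 0.0108% of all genes tested passed (0.00542% higher and 0.00542% lower). DESeq2 on the same counts gave an adjusted p under 0.05 to 7 of the 10, the same 7 in the same directions, against 13.4% of all genes tested. Members went both ways, with a median log2 fold change of 0.13, beside 0.03 over the whole table tested. This median turned with single libraries, at -0.19 without HFD library 3, -0.06 without HTG library 1 and 0.64 without HFD library 2.

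**Figure D2:**
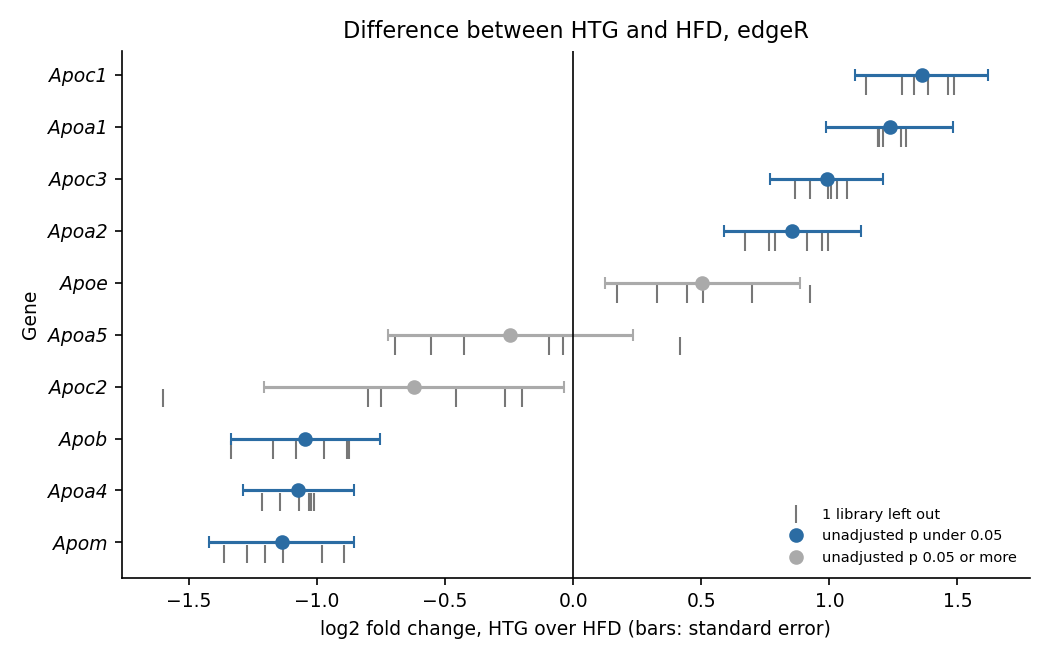
Log2 fold change of HTG over HFD for the 10 genes, with its standard error as a bar and the 6 fits that each left out 1 library as grey ticks. Apoc1, Apoa1, Apoc3 and Apoa2 lie above 0 and Apob, Apoa4 and Apom below 0 in every fit shown, while the ticks of Apoa5 fall on both sides.

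Apoa1 (ENSMUSG00000032083, chromosome 9, 46139878 to 46141764) encodes apolipoprotein A-I, the main protein of HDL and the activator of LCAT, the enzyme that esterifies plasma cholesterol. Coordinates are those of the authors' table, for which the mouse build is not named. Apoa1 had 6345, 5065 and 5412 FPKM in HFD libraries 1, 2 and 3 and 11151, 14646 and 12599.6 FPKM in HTG libraries 1, 2 and 3. The lowest HTG library was well above the highest HFD library. Scaled between libraries, the level was 7159 ± 579 CPM in the HFD group and 16858 ± 1806 CPM in the HTG group (SD, n = 3 per group), 2.35-fold higher. Its log2 fold change was 1.24 (standard error 0.25, edgeR adjusted p = 0.0582).

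Apoa2 (ENSMUSG00000005681, chromosome 1, 171052623 to 171053948) encodes apolipoprotein A-II, the second protein of HDL. It had 3936, 3901 and 2650 FPKM in HFD libraries 1, 2 and 3 and 6353, 7443 and 4833 FPKM in HTG libraries 1, 2 and 3. HTG library 3, the library with the fewest counts, was the lowest of its group and still above every HFD library. The log2 fold change was 0.85 (standard error 0.27, edgeR adjusted p = 0.104), the smallest of the 4 higher genes. It was 0.52 (edgeR adjusted p = 0.236) once each library's trend on transcript length was removed, a check described below.

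The FPKM ratio of Apoa1 to Apoa2 within a library, which no scaling between libraries can alter, was 1.30 to 2.04 in the HFD group and 1.76 to 2.61 in the HTG group, so these ranges overlapped. The ratio of Apoa1 to Apoa4 was 9.36 to 11.8 in the HFD libraries and 48.2 to 61.1 in the HTG libraries. The ratio of Apoa1 to Apob was 19.1 to 32.4 and 78.4 to 164. In these latter comparisons the groups stood far apart. This separation follows from the levels, since Apoa1 was higher and Apoa4 and Apob were lower in every HTG library. A ratio within a library does not remove the trend on transcript length.

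Apoc1 (ENSMUSG00000040564, chromosome 7, 19423406 to 19426585) encodes apolipoprotein C-I, a small protein that slows the uptake of remnant particles. It had 2060, 1459 and 1721 FPKM in HFD libraries 1, 2 and 3 and 3893, 5966 and 3296 FPKM in HTG libraries 1, 2 and 3. All HTG libraries were above all HFD libraries, HTG library 2 by the most. Its log2 fold change of 1.36 was the largest of the 10 (standard error 0.26, edgeR adjusted p = 0.0582).

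Apoc3 (ENSMUSG00000032081, chromosome 9, 46144231 to 46146934) encodes apolipoprotein C-III, an inhibitor of lipoprotein lipase and of the hepatic uptake of triglyceride-rich particles. It had 832, 556 and 787 FPKM in HFD libraries 1, 2 and 3 and 1261, 1628 and 1287 FPKM in HTG libraries 1, 2 and 3. The groups did not overlap. Its log2 fold change was 0.99 (standard error 0.22, edgeR adjusted p = 0.0612). The FPKM ratio of Apoa1 to Apoc3 was 6.88 to 9.11 in the HFD libraries and 8.84 to 9.79 in the HTG libraries, so their ratio overlapped between the groups while both levels did not.

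Apoc2 (ENSMUSG00000002992, chromosome 7, 19405504 to 19411866) encodes apolipoprotein C-II, the activator that lipoprotein lipase needs. It had the widest spread of the 10, with 10237, 5172 and 6131 counts in HFD libraries 1, 2 and 3 and 3693, 13163 and 1002 counts in HTG libraries 1, 2 and 3. The groups overlapped widely, and the log2 fold change of -0.62 had a standard error of 0.59 (edgeR adjusted p = 0.546). Without HTG library 2, the highest of the HTG group, the log2 fold change was -1.60 (edgeR adjusted p = 0.204), which brought Apoc2 to an unadjusted p under 0.05 and made 4 of the 10 genes lower.

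The table also has a row Apoc2l on the same strand (chromosome 7, 19405509 to 19415348), which spans Apoc2 and Apoc4, so that counts of these rows can be divided between them. Apoc2l had 165, 6590 and 8766 counts in HFD libraries 1, 2 and 3 and 11672, 4642 and 8917 counts in HTG libraries 1, 2 and 3. It was low where Apoc2 was high: Apoc2 held 98.4% of the counts of both rows in HFD library 1 and 73.9% in HTG library 2, but 10.1% in HTG library 3. The sum of both rows varied 1.39-fold over the 6 libraries in CPM, where Apoc2 alone varied 7.03-fold. Summed, the level was 179 ± 27.4 CPM in the HFD group and 197 ± 14.8 CPM in the HTG group (SD, n = 3 per group). The log2 fold change of the sum was 0.14 (standard error 0.19, edgeR adjusted p = 0.69), a fit added after both rows were seen.

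**Figure D3:**
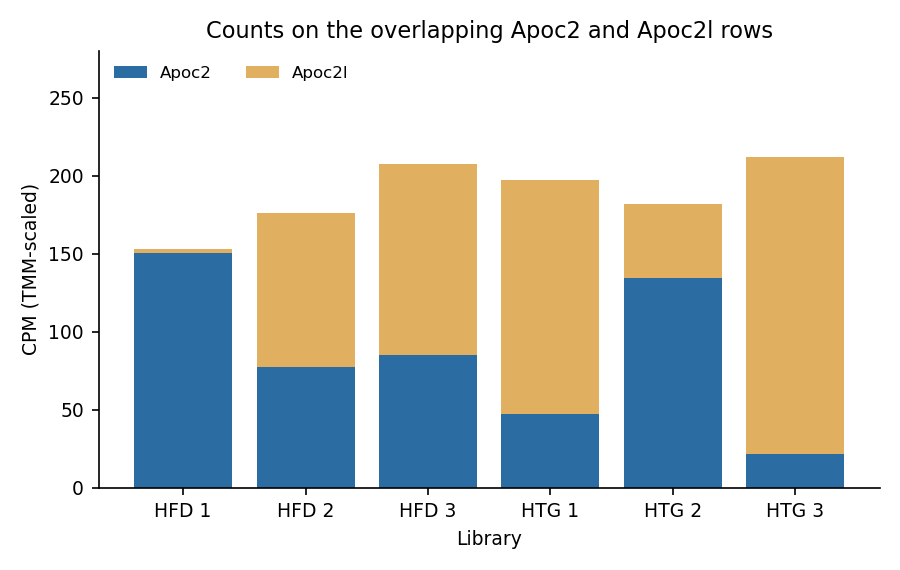
CPM, scaled by TMM, on the Apoc2 row (blue) and the overlapping Apoc2l row (yellow) in each library, stacked. The height of the stack runs from 153 in HFD library 1 to 212 in HTG library 3, while the division between the rows differs from library to library.

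Apob (ENSMUSG00000020609, chromosome 12, 8027648 to 8066835) had 196, 265 and 227 FPKM in HFD libraries 1, 2 and 3 and 142, 89.4 and 92.2 FPKM in HTG libraries 1, 2 and 3. HTG library 1 was the highest of its group and remained below every HFD library. In scaled counts the level was 3325 ± 692 CPM in the HFD group and 1611 ± 461 CPM in the HTG group (SD, n = 3 per group), 2.06-fold higher in HFD. The log2 fold change was -1.05 (standard error 0.29, edgeR adjusted p = 0.0838).

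Apom (ENSMUSG00000024391, chromosome 17, 35347973 to 35351026) encodes apolipoprotein M, the carrier of sphingosine-1-phosphate on HDL. It had 112, 199.9 and 169 FPKM in HFD libraries 1, 2 and 3 and 80.3, 59.2 and 73.4 FPKM in HTG libraries 1, 2 and 3. HFD library 1 was the lowest of its group and lay above every HTG library. The log2 fold change was -1.14 (standard error 0.28, edgeR adjusted p = 0.0671), so that the mRNA of this HDL protein went the opposite way to those of Apoa1 and Apoa2.

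Apoa4 (ENSMUSG00000032080, chromosome 9, 46151994 to 46154757) encodes apolipoprotein A-IV, which is carried on chylomicrons and HDL and is strongly expressed in fatty mouse liver. It had 538, 435 and 578 FPKM in HFD libraries 1, 2 and 3 and 208, 304 and 206 FPKM in HTG libraries 1, 2 and 3. The groups were apart, and HTG library 2, the highest of its group, was still below every HFD library. The log2 fold change was -1.07 (standard error 0.22, edgeR adjusted p = 0.0582).

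Apoa5 (ENSMUSG00000032079, chromosome 9, 46179931 to 46183217) encodes apolipoprotein A-V, a liver protein of low plasma concentration that promotes the lipolysis of triglyceride. It had 463, 989.8 and 331 FPKM in HFD libraries 1, 2 and 3 and 743, 372 and 374 FPKM in HTG libraries 1, 2 and 3. HFD library 2 was the highest of all and HFD library 3 the lowest, so the HTG values lay inside the HFD range. The log2 fold change of -0.25 had a standard error of 0.48 (edgeR adjusted p = 0.787), and it was 0.42 without HFD library 2 (adjusted p = 0.586).

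Apoe (ENSMUSG00000002985, chromosome 7, 19430034 to 19433113) encodes apolipoprotein E, the ligand by which remnant particles bind receptors on liver cells, and it is ordinarily an abundant mRNA of liver and of macrophages. Here it had 29.4, 39.9 and 14.1 FPKM in HFD libraries 1, 2 and 3 and 45.8, 45.3 and 26.5 FPKM in HTG libraries 1, 2 and 3. It was rank 1327 of all gene rows in the HFD group and rank 919 in the HTG group. Within a library, Apoc1, its neighbour on the chromosome, had 36.6 to 122 times the FPKM of Apoe in the HFD group and 85 to 132 times in the HTG group. The low level was thus shared by all 6 libraries.

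The Apoe groups overlapped, with a log2 fold change of 0.50 (standard error 0.38, edgeR adjusted p = 0.445). HFD library 2 weighed on this value, since without it the log2 fold change was 0.93 (edgeR adjusted p = 0.208), which brought Apoe to an unadjusted p under 0.05 and made 5 of the 10 genes higher, and without HFD library 3 it was 0.17 (adjusted p = 0.778). The 12 markers of macrophages and Kupffer cells, which can also supply Apoe mRNA, summed to 1132 to 1940 CPM in the HFD libraries and 788 to 1427 CPM in the HTG libraries. Among them 3 of 12 had an unadjusted p under 0.05, all lower, against 12.4% of all genes tested that were lower. Of these, Adgre1, the F4/80 antigen gene, fell the most, from 22.1 ± 5.42 to 7.64 ± 2.09 CPM (SD, n = 3 per group). The median log2 fold change of the 12 was -0.42, and C1qa (0.22, edgeR adjusted p = 0.641) alone was above 0. Clec4f (-0.08, adjusted p = 0.894) and Timd4 (-0.02, adjusted p = 0.988) lay near 0. The part of these cells in the Apoe values was not tested. In whole tissue, fewer cells of a type and less RNA per cell cannot be told apart.

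Position on the chromosome was not used to choose the genes. Apoa1, Apoc3, Apoa4 and Apoa5 lie within 43.3 kb on chromosome 9 (46139878 to 46183217), with Apoc3 on the opposite strand. In that order their log2 fold changes were 1.24, 0.99, -1.07 and -0.25, so the neighbouring Apoc3 and Apoa4 went opposite ways. Of the 9 other rows within 100 kb of the ends of this cluster, 4 were tested. Against 24.7% of all genes tested, 1 of these 4 had an unadjusted p under 0.05. This was Gm47528, on the strand opposite to Apoa4 and overlapping it, with 121, 275 and 445 counts in HFD libraries 1, 2 and 3 and 66, 179 and 33 counts in HTG libraries 1, 2 and 3 (log2 fold change -1.82, edgeR adjusted p = 0.0946). No source states that reads were counted by strand, and its reads cannot then be told apart from those of Apoa4, which had at least 58290 counts in each HFD library. Zpr1 (0.06, edgeR adjusted p = 0.925) and Bud13 (-0.05, adjusted p = 0.94), beyond Apoa5, did not pass.

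Apoc2, Apoc4, Apoc1 and Apoe lie on 1 strand within 27.6 kb of chromosome 7 (19405504 to 19433113). Apoc4, whose protein is a minor apolipoprotein of very-low-density particles, lies between Apoc2 and Apoc1 and is not among the 10 genes. It had 134, 99.9 and 114 FPKM in HFD libraries 1, 2 and 3 and 212, 267 and 165 FPKM in HTG libraries 1, 2 and 3. The groups did not overlap, and the log2 fold change was 0.92 (standard error 0.21, edgeR adjusted p = 0.0616). Its counts, like those of Apoc2, can be divided with the Apoc2l row. Here Apoc4 and Apoc1 were both higher, while Apoe did not pass. Of the other 9 tested rows within 100 kb, 1 passed the unadjusted threshold of 0.05 upward, against 12.3% of all genes tested. This was Clasrp (log2 fold change 0.90, edgeR adjusted p = 0.0559). Downward, 1 of the 9 passed, against 12.4%, namely Clptm1 (-0.64, adjusted p = 0.0983). Tomm40, next to Apoe, had a log2 fold change of 0.30 (edgeR adjusted p = 0.393).

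**Figure D4:**
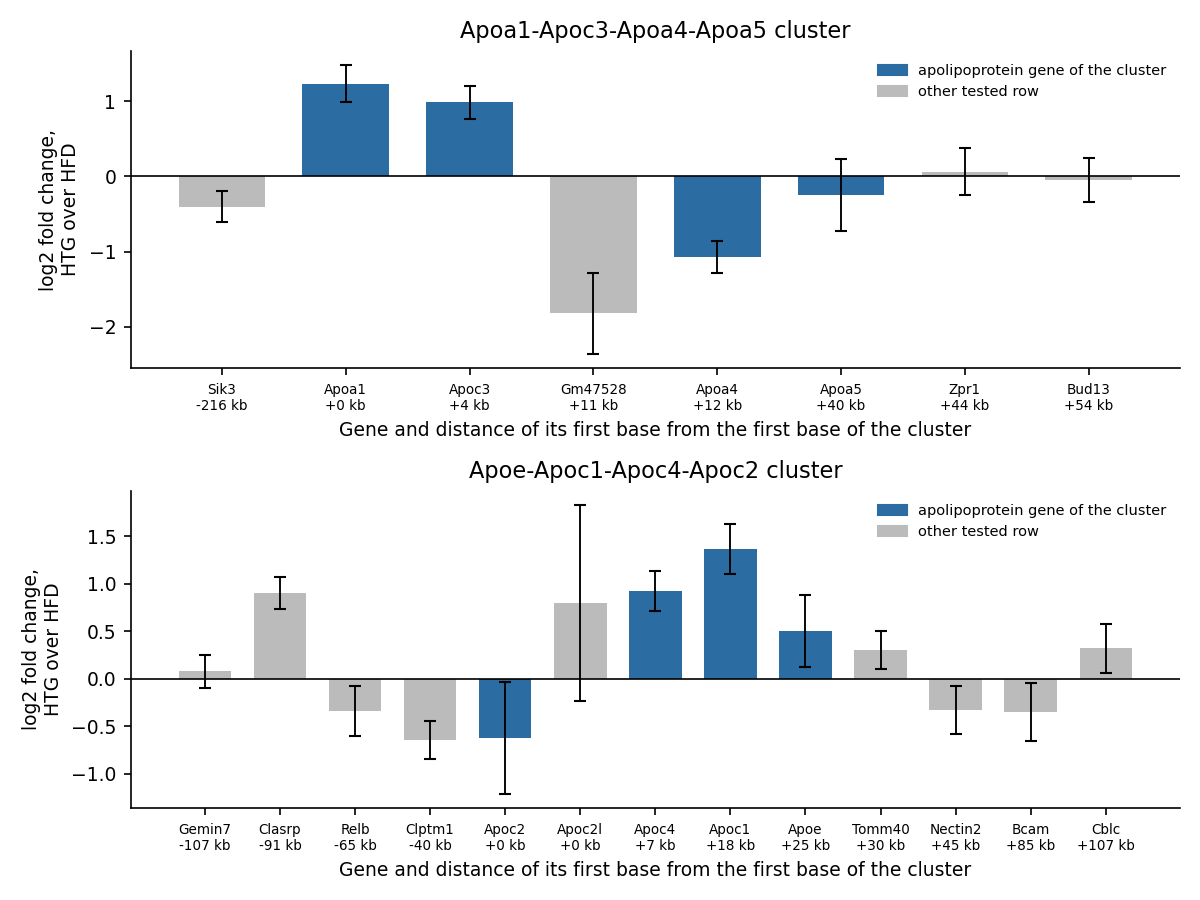
Log2 fold change of HTG over HFD, with its standard error, for the tested rows of the 2 apolipoprotein clusters in the order of the chromosome, labelled with their distance in kb from the first base of the cluster. Within the first cluster the sign turns between Apoc3 (0.99) and Apoa4 (-1.07), and in the second Apoc4 (0.92) and Apoc1 (1.36) stand above 0.

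Transcript length moved with the difference between the groups across the whole table. The length was taken as that implied by count and FPKM, which could be had for 16732 of the genes tested. Log2 fold changes had a median of 0.52 in the 633 genes under 500 nt, 0.33 in the 1180 genes from 500 to 1000 nt, 0.18 in the 2432 genes from 1000 to 2000 nt and between -0.05 and 0.01 in the 3 longer classes. The 4 higher apolipoprotein genes were short, at 565 nt for Apoa2, 782 nt for Apoc1, 1066 nt for Apoc3 and 1300 nt for Apoa1, each above the median of its class. Apom, at 1065 nt, and Apoa4, at 1909 nt, were lower although in a class with a median above 0, and Apob, at 14653 nt, was the longest. Apoe had an implied length of 2250 nt.

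With each library's trend on length removed, an alternative chosen after the data were seen, the log2 fold changes were 1.04 for Apoa1, 1.06 for Apoc1, 0.75 for Apoc3, -1.18 for Apoa4, -1.04 for Apob and -1.38 for Apom. All 6 still had an unadjusted p under 0.05 (adjusted p from 0.0594 to 0.0911), and Apoa2, as given above, did not.

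**Figure D5:**
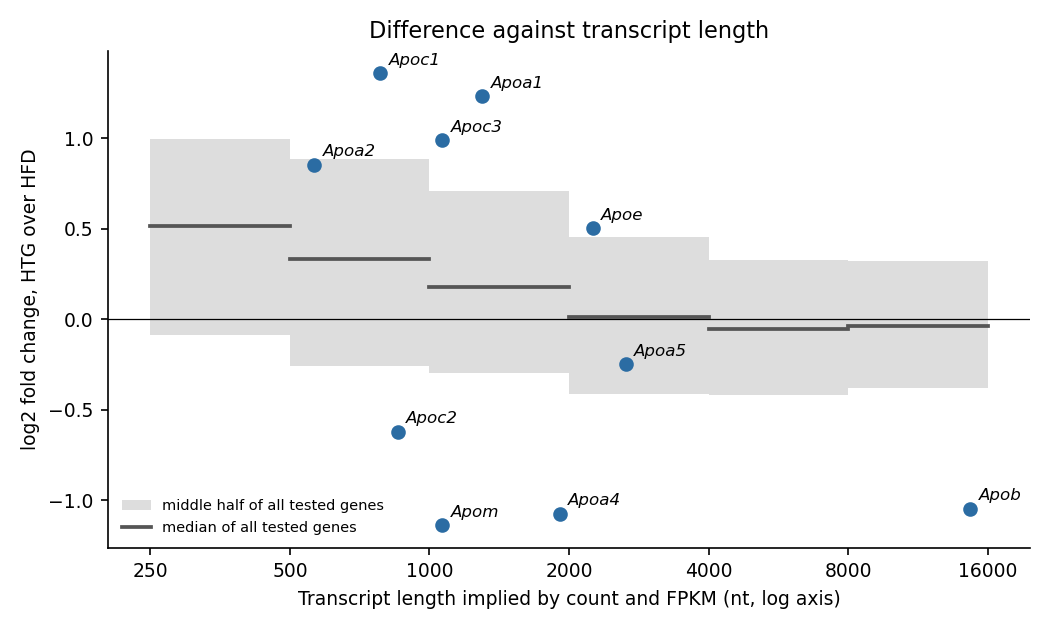
Log2 fold change of HTG over HFD against the transcript length implied by count and FPKM, on a log axis, with the 10 apolipoprotein genes as blue points. Grey bands span the interquartile range of all tested genes in 6 length classes, and dark lines are their medians, which run from 0.52 under 500 nt to -0.04 from 8000 nt upward. The outer classes, which have no outer limit, are drawn with an arbitrary outer edge.

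Beyond the apolipoproteins themselves, 5 lists of related genes were read from the same fit, with the unadjusted p under 0.05 as the threshold that 12.3% of all genes tested passed upward and 12.4% downward. Of 15 genes for the assembly and secretion of lipoprotein particles, 0 were higher and 5 were lower, with a median log2 fold change of -0.23. The lower ones included Mttp, the microsomal protein that loads lipid onto apolipoprotein B. Mttp had 24.1, 34.6 and 39.7 FPKM in HFD libraries 1, 2 and 3 and 20.0, 12.7 and 14.5 FPKM in HTG libraries 1, 2 and 3. Its groups did not overlap, as for Apob (log2 fold change -1.01, standard error 0.28, edgeR adjusted p = 0.0818). Sar1b, a coat protein of the vesicles that carry such particles out of the endoplasmic reticulum, went the same way (-0.96, edgeR adjusted p = 0.106). So did Mia2 (-0.44, edgeR adjusted p = 0.172), Mia3 (-0.46, adjusted p = 0.192) and A1cf (-0.59, adjusted p = 0.197), the partner of the Apob mRNA editing enzyme Apobec1. In none of the 5 lists, 0 genes in all, did edgeR give an adjusted p under 0.05, whereas DESeq2 gave it to 2 of the 15 assembly genes, against 13.4% of all genes tested. In the lists that follow, DESeq2 gave it to 3 of 15 other apolipoproteins and HDL-bound proteins, 3 of 16 clearance genes, 6 of 22 transcription factors and 0 of 12 other secreted proteins.

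Of 15 other apolipoproteins and HDL-bound proteins, 2 were higher, Apoc4 and Saa4, and 1 was lower, Pon3, and their median was 0.08. Saa4, a constitutive serum amyloid A of HDL, had 170, 73.3 and 72.6 FPKM in HFD libraries 1, 2 and 3 and 229, 163 and 270 FPKM in HTG libraries 1, 2 and 3. Its groups overlapped through HFD library 1 (log2 fold change 1.15, edgeR adjusted p = 0.115). Pon3, a paraoxonase of HDL, had a log2 fold change of -0.69 (edgeR adjusted p = 0.0769). Lcat, which apolipoprotein A-I activates, had a log2 fold change of -0.55 and did not pass (edgeR adjusted p = 0.266).

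Of the 16 listed genes for clearance and lipolysis, 1 was higher and 3 were lower, with a median of -0.28. Angptl8, an inhibitor of lipoprotein lipase activity, was the higher one, at 34.4, 20.7 and 61.7 FPKM in HFD libraries 1, 2 and 3 and 95.4, 416 and 31.0 FPKM in HTG libraries 1, 2 and 3. HTG library 2 stood far above the others, and HTG library 3 lay inside the HFD range (log2 fold change 2.20, edgeR adjusted p = 0.137). Lipg, an endothelial lipase that acts on HDL (-2.18, edgeR adjusted p = 0.11), and Sdc1, a heparan sulphate proteoglycan that binds remnants (-1.13, adjusted p = 0.118), were among the lower ones, with groups that overlapped through HFD library 1. The HDL receptor gene Scarb1 (-0.35, edgeR adjusted p = 0.255) did not pass.

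Of 22 transcription factors known to act on apolipoprotein genes, 4 were higher and 3 were lower, with a median of -0.03. The higher ones were Nr0b2, the corepressor SHP (0.92, edgeR adjusted p = 0.055), Mlxipl, the carbohydrate sensor ChREBP (1.29, adjusted p = 0.0613), Foxa2 (0.91, adjusted p = 0.0948) and Foxa1 (0.72, adjusted p = 0.0963). The lower ones were Rxra, the shared partner of lipid-sensing nuclear receptors (-0.73, edgeR adjusted p = 0.0785), Foxo1 (-0.65, adjusted p = 0.0937) and Ppara (-0.80, adjusted p = 0.178), the last with overlapping groups. Hnf4a, a main activator of the chromosome 9 cluster in hepatocytes, had 93.5, 203 and 93.5 FPKM in HFD libraries 1, 2 and 3 and 96.5, 66.8 and 71.0 FPKM in HTG libraries 1, 2 and 3. Its groups overlapped (log2 fold change -0.71, edgeR adjusted p = 0.282).

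Of 12 other genes for proteins that hepatocytes secrete, 0 had an unadjusted p under 0.05 in edgeR and 0 in DESeq2, and their median log2 fold change was -0.05. Alb, the albumin gene and the most abundant of them, had 27296 FPKM on average in the HFD group and 21774 FPKM in the HTG group, without overlap of the FPKM values (log2 fold change -0.28, edgeR adjusted p = 0.555). The difference between this list and the apolipoproteins was not tested. Of the 8 hepatocyte markers, 2 were lower at an unadjusted p under 0.05, against 12.4% of all genes tested, namely Cps1 (-1.62, edgeR adjusted p = 0.0568) and Tat (-1.32, adjusted p = 0.0839). The sum of the 8 was 77779 to 92883 CPM in the HFD libraries and 67737 to 70254 CPM in the HTG libraries, with groups apart. Alb made up most of this sum, at 57854 to 74503 CPM in the HFD libraries and 53506 to 55201 CPM in the HTG libraries. Taken singly, each of the 8 had at least 318.8 CPM in every library, the lowest being Hnf4a in HTG library 2. This tissue thus carried hepatocyte markers in every library.

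Among 10 enterocyte markers, whose cell type also makes Apoa1, Apoa4 and Apob, 8 were in the table, and the defining Lct and Sis were at or under 12 counts in every library. Their sum was 167 to 226 CPM in the HFD libraries and 120 to 184 CPM in the HTG libraries. It was made up mainly of Anpep, which hepatocytes also express. Of the 3 that were tested, Anpep alone had an unadjusted p under 0.05 (-0.63, edgeR adjusted p = 0.165). Fabp2 went the other way and did not pass (0.48, edgeR adjusted p = 0.377). It had 34.6, 29.9 and 32.3 FPKM in HFD libraries 1, 2 and 3 and 51.6, 60.6 and 21.0 FPKM in HTG libraries 1, 2 and 3. Slc5a1 did not pass either (-0.87, edgeR adjusted p = 0.247). The sums of the marker lists for stellate cells (150 to 214 CPM in HFD, 132 to 185 in HTG), endothelial cells (74.3 to 150.1 and 134 to 197), cholangiocytes (85.3 to 106 and 59.5 to 131), red cells (234 to 422 and 258 to 484) and lymphocytes (23.0 to 31.7 and 27.2 to 31.7) overlapped between the groups. Their part in the apolipoprotein values was not tested.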

How the data were processed

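RNA sequencing values of 6 liver libraries, 3 per group by title, were analysed. The values that the authors deposited are whole-number estimated counts, unscaled between libraries, and FPKM, which the authors scaled by transcript length and library size. The submitters' processing notes name HISAT2, StringTie, SAMtools and the rat build mRatBN7.2. Gene rows carry mouse identifiers, so the build is unsettled. The counting tool and its use of strand are not given in the sources used here, and the labels and the paper describe different library kits.

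Estimated counts were fitted in edgeR 4.0.16 (R 4.3.3; filterByExpr, TMM scaling, glmQLFit and glmQLFTest, group as the only term) over all genes that passed the filter, and p-values were adjusted by the Benjamini-Hochberg method. Standard errors were derived from the log2 fold change and its F statistic. With 3 libraries against 3, an exact two-sided permutation test cannot go below p = 0.1. Alternatives used DESeq2 1.42.0, limma 3.58.1 on FPKM, other filters and scalings, a replicate block and each library left out.

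Named genes were the 10 members, genes of the fixed lists with the smallest p (up to 3 in each direction) or needed for a clause, and cluster rows with an unadjusted p under 0.05. Mia3, A1cf, Foxa1, Zpr1, Bud13 and Tomm40 were named in addition after their values were seen. The members and lists were chosen with earlier results of these data known. Reference promoter sequences were of rat and were not used here. Some genes of the clearance list were counted but are not reported here by name.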

Additional observations from a re-analysis of the deposited data

How the results depend on the processing

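Each library left out in turn, the scalings, the filters, DESeq2 and limma on FPKM left Apoa1, Apoc1, Apoc3, Apoa4, Apob and Apom on the same side of 0 with an unadjusted p under 0.05 in all 19 alternatives, and Apoa2 in 18 of 19. The number of the 10 genes with an adjusted p under 0.05, which was 0, was 7 in DESeq2, 3 with at least 10 counts in every library, 4 with counts divided by 4, 1 in limma on log2(FPKM + 0.1), 6 in limma on log2(FPKM + 1), and 0 to 3 when 1 library was left out, with 3 reached without HTG library 1. The calls at an adjusted p under 0.1 shifted as well. The smallest edgeR adjusted p of the 10 was 0.0992 without HFD library 1, 0.126 without HFD library 2 and 0.144 without HFD library 3. It was 0.0435 without HTG library 1, 0.188 without HTG library 2, 0.179 without HTG library 3 and 0.143 with a replicate block. The cause of these shifts was not tested. The median over the 10 genes ran from -0.19 (without HFD library 3) to 0.64 (without HFD library 2). Apoa5 ran from -0.70 to 0.42 when 1 library was left out, against -0.25, the 0.42 being without HFD library 2, and Apoc2 was 0.14 with Apoc2l added, against -0.62. The difference in the share of a library taken by the 10 genes, 1.16 percentage points, was 1.48 without mitochondrial rows, 2.00 as a share of FPKM, and 0.940 to 1.30 when 1 library was left out. No label states that replicate numbers pair the libraries. Deviations from the group means correlated at -0.13, -0.11 and 0.19 for numbers 1, 2 and 3. These values cannot settle whether a pairing exists, since deviations within a group of 3 sum to 0. In the fit with a replicate block, 5 of the 10 had an unadjusted p under 0.05 upward and 3 downward, Apoe being added (0.62, edgeR adjusted p = 0.238), and 0 had an adjusted p under 0.05. Summing several rows of a symbol was not run, since each of the 10 symbols had 1 row. Depth as a limit was not varied, and all 10 genes had at least 1002 counts in every library.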
